A study of Homo sapiens with 9 samples.

Results

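The aminoacyl-tRNA synthetases and 2 scaffold proteins of the multisynthetase complex, AIMP1 and AIMP2, were followed in ribosome profiling of Huh-7 cells treated with the translation inhibitors PF8503 or PF846. The 38 genes were chosen by name, with earlier results of these data known. Of these, 34 had a value in both deposited tables, among the 9221 transcripts that had one in either table. The 34 comprised 18 of 20 cytosolic synthetases, 14 of 16 mitochondrial synthetases, whose symbols end in 2, and both scaffold proteins. CARS, VARS, SARS2 and VARS2, the cytosolic cysteinyl and valyl enzymes and the mitochondrial seryl and valyl enzymes, were not analysed here.

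Huh-7 is an established liver-derived human cell line. Cells were treated for 1 hr with 1.5 µM PF8503 (labelled PF-06378503), with 1.5 µM PF846 (PF-06446846 in the series description, PF-067446846 in the sample labels) or with 0.5% DMSO as the vehicle, and all cultures were lysed in the presence of cycloheximide. The labels give 3 biological replicates of each treatment, 9 libraries in all. By the lane numbers in the library names, none of 6 sequencing lanes held libraries of more than 1 treatment, so lane and treatment cannot be told apart. All 10 liver markers looked for were measured in vehicle, the highest being AFP, alpha-fetoprotein, at a mean of 212970 normalized counts and ALB, albumin, at 148370. Of 5 markers of other cell types, the endothelial PECAM1 had a value (170.0), and PTPRC, CD3E, HBB and COL1A1 were not analysed here.

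Aminoacyl-tRNA synthetases attach each amino acid to its tRNA and so supply the ribosome with its substrates. One set works in the cytosol, where several enzymes are held with AIMP1, AIMP2 and EEF1E1 in the multisynthetase complex. A separate set is encoded in the nucleus, made on cytosolic ribosomes and imported into mitochondria through N-terminal targeting sequences, while GARS and KARS serve both compartments. The transcription factor ATF4, made when uncharged tRNA or another stress activates the integrated stress response, induces many of the cytosolic enzymes. PF846 and PF8503 are related compounds that bind in the ribosome exit tunnel and stall ribosomes on certain nascent chains, so that fewer footprints are found 3′ of the stall.

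The deposited values are the authors' means over the libraries of a treatment, in read counts divided by DESeq size factors (normalized counts). For a transcript with a stall called, reads were counted 3′ of the stall, and otherwise from codon 11. The tables hold no value of a single library, so the replicate error and the depth of each library are unknown, no test could be run, and every difference below is a description. Ratios are compound over vehicle within 1 table, on the log2 scale. Footprints per transcript reflect both the amount of mRNA and its translation, and these cannot be told apart here. The same vehicle libraries entered both tables, so both ratios share them. The vehicle means of the tables stood at a constant ratio of 1.09 for all 34 genes, with a largest departure of 8.4e-05 on the log2 scale, so the same stretch of each coding sequence was counted for both compounds.

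In vehicle, the cytosolic synthetases carried many more footprints per length than the mitochondrial enzymes. Levels between genes were compared as vehicle normalized counts per 100 codons (footprint density). The median density was 396.5 for the 18 cytosolic enzymes, 67.9 for the 14 mitochondrial enzymes and 87.3 for all 9121 transcripts with a known coding length. The cytosolic median was 5.84 times the mitochondrial one. All 18 cytosolic enzymes stood above the median of all transcripts, against 5 of 14 mitochondrial enzymes.

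GARS, the glycyl enzyme of cytosol and mitochondria, had the highest density at 747.3. It was followed by KARS, the lysyl enzyme of both compartments, at 610.0, AARS, the alanyl enzyme, at 603.3 and NARS, the asparaginyl enzyme, at 589.8. At the lower end of the cytosolic set stood the seryl enzyme SARS at 239.3, the histidyl enzyme HARS at 149.5 and the leucyl enzyme LARS at 116.2. The spread from GARS to LARS was 6.43-fold. By percentile among all transcripts, the cytosolic enzymes lay between 58.0 and 91.0.

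Among the mitochondrial enzymes, the isoleucyl IARS2 stood apart from the others at 389.1, above 9 of the 18 cytosolic enzymes. The next were RARS2, the arginyl enzyme, at 104.9 and EARS2, the glutamyl enzyme, at 99.4. The lowest were FARS2, the phenylalanyl enzyme, at 36.8, PARS2, the prolyl enzyme, at 27.0 and AARS2, the alanyl enzyme, at 26.1. Apart from IARS2, the other 13 of these 14 mitochondrial enzymes lay below LARS, the lowest cytosolic one. Which neighbours in this order differ beyond their error could not be tested.

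**Figure D1:**
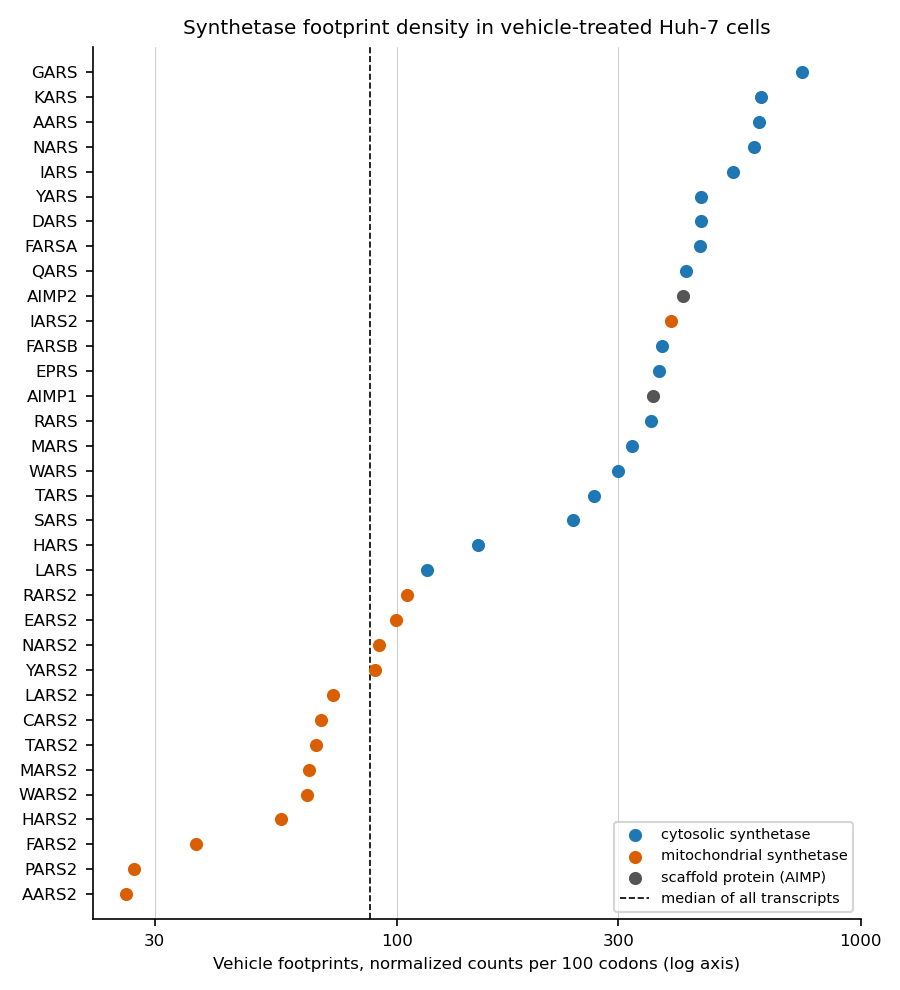
Footprint density in vehicle-treated Huh-7 cells for the 34 genes, in the authors' mean normalized counts per 100 codons on a log axis, with 1 point per gene coloured by group and a dashed line at the median of all transcripts (87.3). The cytosolic enzymes lie between 116.2 and 747.3, and all mitochondrial enzymes but IARS2 (389.1) lie at or below 104.9.

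The cytosolic enzyme was the denser in all 14 pairs of cytosolic and mitochondrial enzymes for the same amino acid. In these pairs FARS2 was set against both subunits of the cytosolic phenylalanyl enzyme, FARSA and FARSB, and the double enzyme EPRS, which charges glutamate and proline, against EARS2 and PARS2. The median ratio was 4.83. The smallest was 1.36, for IARS over IARS2, followed by 1.60 for LARS over LARS2. The largest were 23.1 for AARS over AARS2, 13.6 for EPRS over PARS2 and 12.2 for FARSA over FARS2. No pair shared a run of 28 bases between its coding sequences, which is about the length of a footprint.

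With PF8503, the synthetases stayed close to vehicle, and 1 of the 34 stood apart by at least 0.25 on the log2 scale. This was PARS2, which was higher. The median log2 ratio was -0.0020 for the 34 genes and 0.013 for all 9157 transcripts of the table, with 17 of the 34 genes below vehicle and 17 above. None of the 34 was lower by at least 0.25, against 4.23% of all transcripts, and 1 was higher, against 3.79%. At a log2 ratio of 0.15, 1 gene was lower (RARS2) and 1 was higher (PARS2), beside 10.1% and 12.1% of all transcripts. None reached an absolute log2 ratio of 0.5, against 1.32% of all.

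The 18 cytosolic enzymes had a median log2 ratio of -0.0091 with PF8503, within a range from -0.078 for NARS to 0.11 for FARSA. The 14 mitochondrial enzymes had a median of 0.013 and a wider range, from -0.15 for RARS2 to 0.33 for PARS2. Without PARS2 the mitochondrial range ended at 0.13, for the asparaginyl enzyme NARS2. The central 95% of all transcripts ran from -0.32 to 0.28, so that all of the 34 genes but PARS2 lay inside it. Summed over the enzymes, the mean with PF8503 differed from vehicle by -0.983% for the cytosolic set and by 0.306% for the mitochondrial set.

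**Figure D2:**
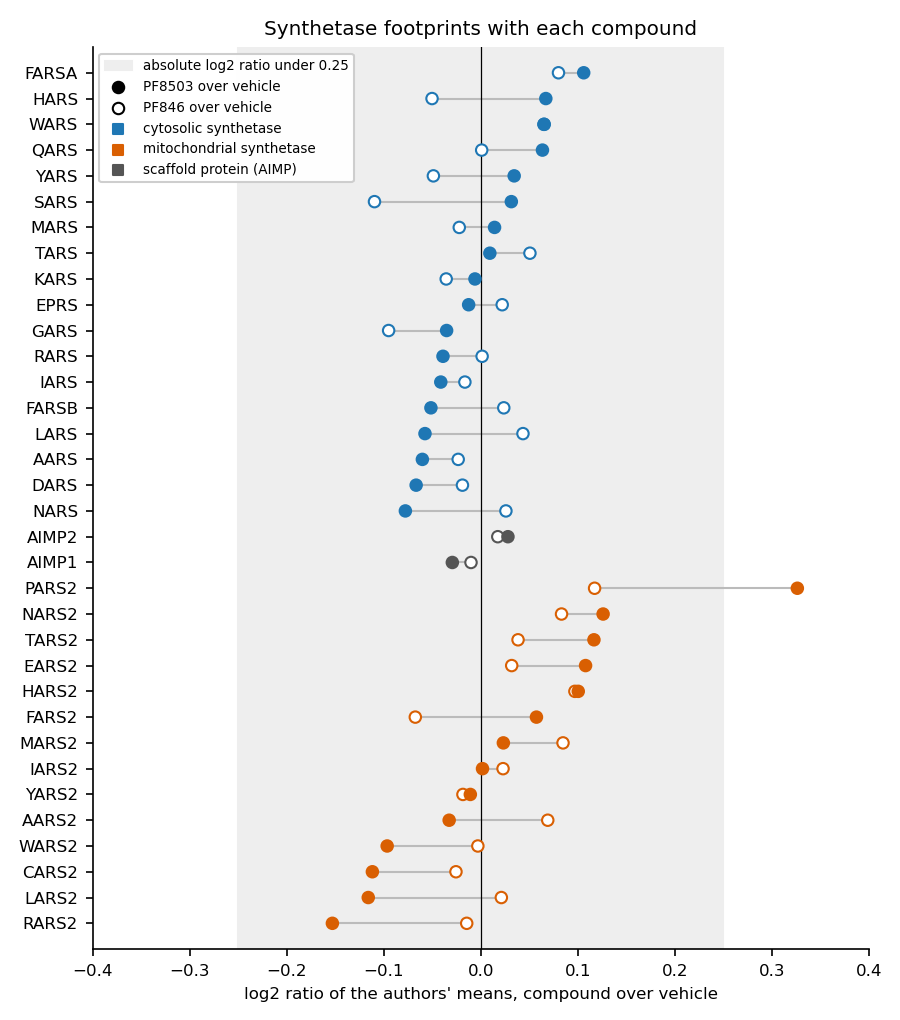
The log2 ratio of the authors' means for each of the 34 genes, with PF8503 over vehicle as filled points and PF846 over vehicle as open points, joined by a line and coloured by group. Only the PF8503 point of PARS2 (0.33) lies outside the grey band, which marks absolute log2 ratios under 0.25.

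PARS2 charges mitochondrial tRNA with proline. Its mean was 123.0 normalized counts in vehicle and 154.2 with PF8503, which is higher by 25.4%. In the PF846 table it was 112.6 in vehicle and 122.1 with PF846, higher by 8.48% (log2 ratio 0.12). With PF8503, a higher log2 ratio than that of PARS2 was found for 137 transcripts of any kind. PARS2 has the lowest vehicle mean of the 34 genes, and ratios of weakly measured transcripts spread more widely. Among the 2650 transcripts with a vehicle mean under 200, the central 95% ran from -0.39 to 0.36, which takes in PARS2, 9.28% were higher by at least 0.25 and 110 (4.15%) lay above PARS2. Among the 2173 transcripts with a mean of at least 1000, 0.552% were higher by at least 0.25. The share of this spread that comes from counting error was not tested. FARS2, the other member under 200, had a log2 ratio of 0.058.

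**Figure D3:**
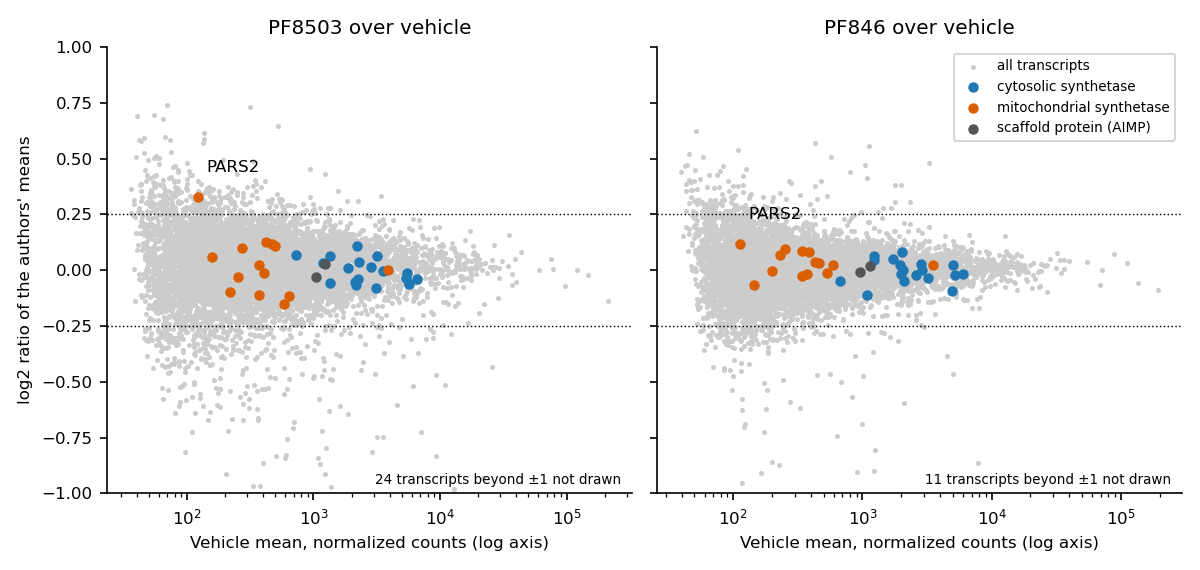
The log2 ratio of compound over vehicle (y axis) against the authors' vehicle mean in normalized counts (log x axis) for every transcript in grey and the 34 genes in colour, with dotted lines at 0.25 and -0.25. The grey cloud is widest at low means, where PARS2 lies, and the cytosolic enzymes, with means from 731 upward in the PF8503 table, stay between -0.078 and 0.11 with PF8503. The 24 and 11 transcripts beyond 1 or -1 are not drawn.

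The coding starts of the genes at the ends of the ranking are shown, as the stretch that the counting leaves out begins there, together with RARS, the cytosolic partner of RARS2. Each is the first 30 codons of the GENCODE version 44 canonical transcript on GRCh38, 5′ to 3′, with codons 1 to 10, which the methods leave out of the counting, in lower case and codons 11 to 30 in capitals.
PARS2: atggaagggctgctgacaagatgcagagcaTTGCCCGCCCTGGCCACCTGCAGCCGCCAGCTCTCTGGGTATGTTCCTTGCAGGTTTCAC
RARS2: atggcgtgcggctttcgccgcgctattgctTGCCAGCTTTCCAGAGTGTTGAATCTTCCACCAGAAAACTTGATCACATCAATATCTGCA
RARS: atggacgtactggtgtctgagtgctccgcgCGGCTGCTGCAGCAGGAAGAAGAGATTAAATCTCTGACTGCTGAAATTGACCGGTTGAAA
SARS: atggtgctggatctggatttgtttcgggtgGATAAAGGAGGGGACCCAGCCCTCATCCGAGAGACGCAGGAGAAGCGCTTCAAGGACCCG

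The PARS2 stretch is coding sequence in exon 2 of 2, at chr1:54759072-54759161 on the minus strand, and its protein has 475 codons. That of SARS is in exon 1 of 11, at chr1:109213993-109214082 on the plus strand, with 514 codons in all. The RARS2 stretch begins with 36 bases in exon 1 of 20, at chr6:87589922-87589957 on the minus strand, of 578 codons. The RARS stretch begins with 45 bases in exon 1 of 15, at chr5:168486499-168486543 on the plus strand, of 660 codons. The stretches do not show where ribosomes stood, since the tables give 1 value per transcript.

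RARS2, the mitochondrial arginyl enzyme, was the lowest of the 34 genes with PF8503, at 585.5 normalized counts in vehicle and 526.7 with PF8503 (log2 ratio -0.15). With PF846 it was near vehicle, at 536.0 against 530.7 (-0.014). Its cytosolic partner RARS stood at 2256 in vehicle and 2196 with PF8503 (-0.039). Next to RARS2 came LARS2, the mitochondrial leucyl enzyme, with 642.0 in vehicle and 592.5 with PF8503 (-0.12). It was followed by CARS2, the mitochondrial cysteinyl enzyme, with 373.6 and 345.8 (-0.11). With PF846 the log2 ratio of LARS2 was 0.021 (587.6 and 596.4) and that of CARS2 was -0.025 (342.0 and 336.0). The 3 lowest genes with PF8503 were therefore all mitochondrial.

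Mitochondrial enzymes also made up the other end. Below PARS2 stood NARS2, with 418.8 in vehicle and 457.0 with PF8503 (log2 ratio 0.13), and TARS2, the threonyl enzyme, with 468.0 and 507.4 (0.12). With PF846 both were above vehicle by less, NARS2 at 383.3 against 406.1 (0.083) and TARS2 at 428.3 against 439.9 (0.039). Between the ends the cytosolic enzymes lay close together. Of the 12 members with a vehicle mean between 200 and 1000, the range was from -0.15 to 0.13, and of the 20 with a mean of at least 1000 it was from -0.078 to 0.11. The central 95% of all transcripts in the same classes ran from -0.28 to 0.24 and from -0.29 to 0.18.

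With PF846, all 34 genes lay within 0.15 of vehicle on the log2 scale. None was lower or higher by at least 0.25, against 2.13% and 1.66% of all 8839 transcripts of that table. Likewise none was past 0.15, against 7.12% lower and 6.44% higher, and none past an absolute ratio of 0.5, against 0.475%. The median log2 ratio was 0.0096 for the 34 genes, with 15 below vehicle and 19 above, and 0.00086 for all transcripts. It was -0.0076 for the cytosolic enzymes and 0.028 for the mitochondrial enzymes. The central 95% of all transcripts ran from -0.23 to 0.22 and held all 34 genes.

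The lowest gene with PF846 was SARS, the cytosolic seryl enzyme, with 1082 normalized counts in vehicle and 1003 with PF846 (log2 ratio -0.11). With PF8503 it stood at 1182 in vehicle and 1208 (0.032), on the other side of vehicle. Next came GARS, with 4918 and 4605 (-0.095), and FARS2, with 145.3 and 138.6 (-0.067). The highest was again PARS2. Among the 2554 transcripts with a vehicle mean under 200 in that table, 537 (21.0%) lay above it. HARS2, the mitochondrial histidyl enzyme, followed with 250.6 in vehicle and 268.0 with PF846 (0.097), and then MARS2, the mitochondrial methionyl enzyme, with 338.6 and 359.1 (0.085). With PF8503 the same enzymes stood at 0.10 for HARS2 (273.8 and 293.5) and 0.023 for MARS2 (369.9 and 375.9).

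PF8503 and PF846 were given at the same dose for the same time, so this 1 pair of compounds was compared directly, as the log2 ratio of PF8503 minus that of PF846. None of the 34 genes differed by at least 0.25 in either direction, against 3.56% of all 8775 shared transcripts that were lower with PF8503 and 3.04% that were higher. At 0.15, none was lower, against 8.92%, and 1 was higher (PARS2, by 0.21), against 11.6%. None reached 0.5, against 1.29%. The median difference was -0.0095 for the 34 genes and 0.011 for all transcripts. No interval of these differences could be given, so that the small values do not show that the compounds act alike on these genes.

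The most negative differences were those of RARS2 (-0.14), LARS2 (-0.14) and NARS (-0.10). NARS, the cytosolic asparaginyl enzyme, had 3114 normalized counts in vehicle and 2951 with PF8503, and 2850 in vehicle and 2902 with PF846. The most positive were those of PARS2 (0.21), SARS (0.14) and FARS2 (0.12). FARS2 had 158.7 in vehicle and 165.2 with PF8503. In all, 32 of the 34 genes lay within 0.15 of vehicle with both compounds. Of the 34, 10 were below vehicle with both and 12 above with both, the direction differing between compounds for the rest.

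Of the 34 genes, 10 belong to the multisynthetase complex, 8 enzymes and both scaffold proteins. With PF8503 their median log2 ratio was -0.021, from -0.066 for DARS, the aspartyl enzyme, to 0.064 for QARS, the glutaminyl enzyme, with 7 below vehicle and 3 above. With PF846 the median was -0.0044, from -0.035 for KARS to 0.044 for LARS. The 10 cytosolic enzymes outside the complex had medians of 0.021 for PF8503 and 0.00036 for PF846. In vehicle, the median density was 394.1 for the enzymes of the complex and 411.2 for the cytosolic enzymes outside it.

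AIMP1 and AIMP2 hold parts of the complex together. AIMP1 had 1042 normalized counts in vehicle and 1021 with PF8503 (log2 ratio -0.029), and 954.0 and 947.5 in the PF846 table (-0.0099). AIMP2 had 1243 and 1267 (0.028), and 1137 and 1151 with PF846 (0.018). The density of AIMP1 over AIMP2 was 0.862 in vehicle, 0.828 under PF8503 and 0.845 under PF846. EEF1E1, also called AIMP3, was measured as a partner gene. It had 235.7 and 224.5 with PF8503 (-0.070), and 215.8 and 188.1 with PF846 (-0.20), which was lower than for any of the 34 genes with that compound. With both compounds it lay below the range of the other 10 members of the complex.

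FARSA and FARSB are the catalytic and the partner subunit of the cytosolic phenylalanyl enzyme, which holds equal numbers of both. FARSA had 2194 normalized counts in vehicle and 2361 with PF8503 (log2 ratio 0.11), and 2008 and 2123 with PF846 (0.080), the highest of the cytosolic enzymes with each compound. FARSB had 2122 and 2048 with PF8503 (-0.051), and 1942 and 1974 with PF846 (0.024). The density of FARSA over FARSB, on 508 and 589 codons, was 1.21 in vehicle, 1.34 under PF8503 and 1.25 under PF846. Whether the subunits differed beyond the replicate error could not be tested.

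GARS and KARS each make the cytosolic and the mitochondrial form of their enzyme from 1 gene. GARS had 5373 normalized counts in vehicle and 5244 with PF8503 (log2 ratio -0.035), a smaller difference from vehicle than its -0.095 with PF846. KARS had 3520 and 3506 with PF8503 (-0.0058), and 3222 and 3143 with PF846 (-0.035). The tables give 1 transcript for each, so that the footprints of the compartment forms were not separated.

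Within pairs for the same amino acid, the mitochondrial enzyme had the higher log2 ratio in 9 of 14 pairs with PF8503 and in 8 of 14 with PF846. The largest gaps with PF8503, as the ratio of the mitochondrial minus that of the cytosolic enzyme, were 0.34 for PARS2 and EPRS, 0.20 for NARS2 and NARS, and -0.16 for WARS2 and WARS. EPRS had 5492 normalized counts in vehicle and 5445 with PF8503 (-0.012), so the gap of that pair lies in PARS2. WARS2, the mitochondrial tryptophanyl enzyme, had 217.9 and 203.8 (-0.096), and WARS 1352 and 1415 (0.066). The largest gaps with PF846 were -0.15 for FARS2 and FARSA, 0.15 for HARS2 and HARS and 0.11 for MARS2 and MARS. HARS had 669.1 in vehicle and 646.3 with PF846 (-0.050), and MARS, the methionyl enzyme, had 2586 and 2547 (-0.022). The pairs with the widest gaps were thus not the same for both compounds.

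**Figure D4:**
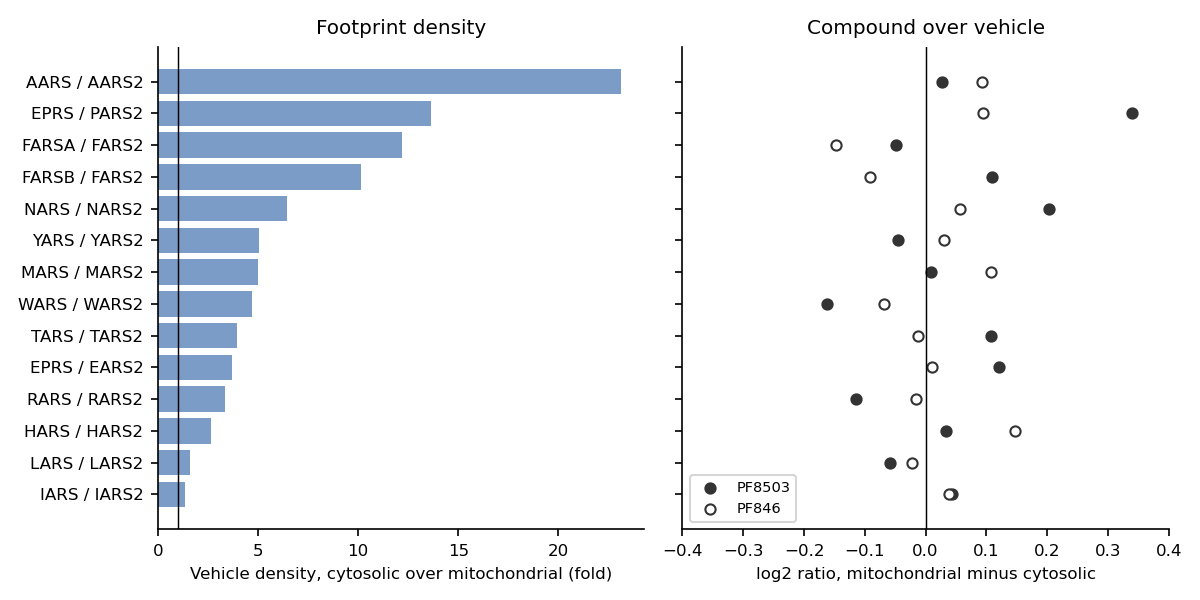
The 14 pairs of cytosolic and mitochondrial enzymes, with bars for the fold by which the cytosolic enzyme exceeds its partner in vehicle footprint density (left, line at 1) and points for the log2 ratio of the mitochondrial minus that of the cytosolic enzyme with PF8503 (filled) or PF846 (open) (right, line at 0). The bars run from 1.36 to 23.1, and the points lie on both sides of 0, with EPRS and PARS2 the farthest out at 0.34.

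Synthetases fall into 2 structural classes by the fold of their catalytic domain. The 15 class I enzymes had median log2 ratios of -0.011 for PF8503 and 0.0011 for PF846, and the 16 class II enzymes 0.021 and 0.025. EPRS, which holds a domain of each class, was left out of both. With PF8503 the ratios ran from -0.15 to 0.11 for class I and from -0.078 to 0.33 for class II, so the ranges overlapped.

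Of the 20 cytosolic enzymes, 12 are on a list of genes known to be induced by ATF4, and 11 of these were measured. Their median log2 ratio was -0.012 with PF8503 and -0.016 with PF846, with 6 below vehicle and 5 above in each case. ATF4 itself had 583.9 normalized counts in vehicle and 587.4 with PF8503 (0.0087), and 534.4 and 527.1 with PF846 (-0.020). ATF4 is one of 17 listed genes of its pathway that are not synthetases, of which 15 were measured. With PF8503 their median was 0.052 and none was past 0.25, beside 4.23% of all transcripts lower and 3.79% higher. With PF846 the median was -0.012 and 1 was lower by at least 0.25, beside 2.13% of all transcripts, and none higher, beside 1.66%. The lower one was CHAC1, a glutathione-degrading enzyme, with 78.7 in vehicle and 66.0 with PF846 (-0.25), close to the cut. Among the 2554 transcripts with a vehicle mean under 200 in the PF846 table, 4.86% were lower by at least 0.25. The range of the list was from -0.15 to 0.16 with PF8503 and from -0.25 to 0.12 with PF846. Of the 15 genes, 6 were above vehicle with both compounds, the highest being SLC3A2, a subunit of amino acid transporters (0.16 and 0.12), and 5 were below with both, the lowest being CHAC1 (-0.15 and -0.25).

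Of 25 genes that work beside the synthetases, such as elongation factors that take up charged tRNA, tRNA end-processing enzymes and amidotransferase subunits, 21 were measured. Their median log2 ratio was 0.024 with PF8503 and 0.0042 with PF846. With PF8503, 1 was lower by at least 0.25, beside 4.23% of all transcripts, and none higher, beside 3.79%. With PF846 none was past 0.25, beside 2.13% lower and 1.66% higher. The lower one was EEF1B2, a nucleotide exchange factor of EEF1A, with 6152 normalized counts in vehicle and 4292 with PF8503 (-0.52). With PF846 its log2 ratio was 0.019. For EEF1B2 the counted stretch differed between the tables, the vehicle mean departing by -0.30 on the log2 scale from the constant ratio, so its values with the compounds rest on different codons and their difference is not a matched comparison. The range of the 21 genes was from -0.52 to 0.15 with PF8503 and from -0.20, for EEF1E1, to 0.13 with PF846. EEF1A1, which carries charged tRNA to the ribosome, was at 0.00099 and 0.032. Its mitochondrial counterpart TUFM was at 0.091 and 0.064. TARSL2, a second threonyl enzyme, was at 0.15 and 0.027.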

How the data were processed

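Ribosome-protected fragments of Huh-7 cells were sequenced in 9 libraries, 3 for each treatment, grouped by their labels. Per the study's methods, adapters were removed with the FASTX toolkit, ribosomal RNA reads were removed with Bowtie, and the rest were aligned with Bowtie to canonical coding transcripts of GENCODE version 24 on GRCh38, keeping reads with a single position. The counted stretch began at the DMax position, a mark of stalling, if the Z score there reached 2, and 10 codons into the coding sequence if not, and it ended 10 codons before the stop. Transcripts needed more than 30 counts. The deposited signal values are the authors' averages of size-factor normalized counts (DESeq) for each treatment. Neither tool's version is given in the sources used here. The fold changes, p-values and adjusted p-values of the authors' comparison of each compound with vehicle were also deposited and were not used. Replicate numbers in the study's scripts do not match those of the labels, and the libraries behind each mean are therefore uncertain.

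From the 2 tables, log2 ratios of the means were computed without a pseudocount (Python 3.11.15, pandas 2.3.3, numpy 2.4.6). A log2 ratio of at least 0.25 in size was counted as past. A departure of vehicle means by over 0.002 on the log2 scale from their constant ratio between tables was read as another counted stretch. 8641 transcripts (98.5%) had the same one. Density was the mean over codons of the GENCODE version 44 canonical transcript less the first and last 10. A stretch shortened alike in both tables would not show and would lower the density. Of 9221 symbols, 9184 (99.6%) were matched, 18 of the 38 genes under a newer symbol. Scripts were tested on simulated data. Since the values are means, no new test could be run from them, and replicate errors and depths could not be given. The authors' own tests of each compound against vehicle were left out by choice.

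Members, lists and the rule for named genes were chosen with earlier results of these data known. By that rule full values are given for the 3 lowest and 3 highest members of each comparison, FARSA, FARSB, AIMP1, AIMP2, GARS and KARS, the 3 widest pairs for each compound, and list genes past 0.25. The classes of vehicle mean, and the list genes named without being past 0.25, were chosen after values were seen. Alternatives were ratios of 0.15 and 0.5, centring on the median of all transcripts, a minimum mean of 100, the mean in place of the median, full coding length, the same counted stretch only, the vehicle mean of the PF846 table and leaving out GARS and KARS. Values of some listed genes are not reported here.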

Additional observations from a re-analysis of the deposited data

How the results depend on the processing

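Of 56 values recomputed under an alternative, 3 counts of members moved. The rest is no measure of stability, since many values could not move. Every mean of a member was at least 112.6, above the minimum of 100, all members had the same counted stretch, the vehicle means of the tables differ by a constant, counts of 0 at 0.25 stay 0 at 0.5, and centring shifts every median by at most 0.013, under the tolerance of 0.05. At a log2 ratio of 0.15, the count lower with PF8503 was 1 in place of 0, and the count higher with PF8503 than with PF846 was 1 in place of 0. At 0.5 the count higher with PF8503 was 0 in place of 1. Group medians moved by at most 0.017, and 3 of those close to 0 changed sign. The cytosolic over mitochondrial density ratio of 5.84 was 5.88 with full coding lengths and 5.46 without GARS and KARS. Leaving out single libraries could not be run. No paired analysis was possible because the deposited tables hold no column of a single library. The log2 ratios of all transcripts spread most widely at low means, where PARS2 and FARS2 lie.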
